A study of Mus musculus with 4 samples.

Results

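The genes described here are 10 of the 23473 gene rows in the count table: 9 encode secreted signals of blood vessel growth and lipid handling, and 1 encodes a receptor. They are Apln and its receptor gene Aplnr, the VEGF ligand genes Vegfa, Vegfb, Vegfc, Figf (VEGF-D) and Pgf, the angiopoietin gene Angpt1, and the angiopoietin-like genes Angptl2 and Angptl4. Rows were taken where the gene name equals one of these symbols, and all 10 were found. The genes were chosen by family, with the differences between the TLX and control libraries already known. These differences, and whether a member passed the fit over all genes, are given only as a description, not as a test of the members. Read counts came from 4 RNA-seq libraries labelled MIN6, the name of a mouse insulinoma line kept as a model of the pancreatic beta cell. There were 2 libraries of control cells, labelled wild type, and 2 of cells with stable overexpression of TLX, the orphan nuclear receptor whose gene is Nr2e1. Both groups were grown with 25 mM glucose and 15% serum. The promoter that drives TLX, the number of clones and whether libraries of a group came from separate cultures were not given in the sources used here, so p-values measure only the spread between these libraries, which may be technical.

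Apelin is a short peptide hormone cut from a longer precursor, and it acts through a G protein-coupled receptor on endothelial and other cells. VEGF ligands are cystine-knot dimers that bind receptor tyrosine kinases and neuropilins. VEGF-A, from Vegfa, is the main signal by which tissues, pancreatic islets among them, attract capillaries. Angiopoietins bind the Tie2 receptor, whereas angiopoietin-like proteins do not, and ANGPTL4 is best known as an inhibitor of lipoprotein lipase. Apln, Vegfa and Angptl4 are known elsewhere as genes that respond to low oxygen.

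Reads assigned to gene rows numbered 8435976 (replicate 1) and 9788646 (replicate 2) for control, 8490145 and 8136185 for TLX. Levels are in CPM, counts relative to library size, on sizes scaled by the trimmed mean of M-values (TMM). Nr2e1 itself had 8 and 10 counts in control and 338 and 281 in TLX. Defining beta cell markers were scarce: 8 of 12 were at 0 in all 4 libraries, and the 12 together reached 18.3 to 20.6 CPM in control and 20.8 to 21.7 CPM in TLX. Mesenchymal markers reached 6060 to 6419 CPM in control and 6752 to 6860 CPM in TLX, carried mostly by Col1a2, Vim and Fn1. Of these 12 markers Lum was at 0, Col3a1, Acta2, Thy1 and Dcn had at most 6 counts in any library, and of the 7 tested 2 rose and 2 fell. How far the marker levels bear on the members was not tested. Beta cell markers this scarce go against the label MIN6. The identity of the cells was not tested, and the label is used below as given. In such bulk samples, fewer cells of a type and less RNA per cell cannot be told apart. Endothelial markers, of the cells that carry most receptors of these ligands, summed to 5.87 to 6.04 CPM in control and 6.56 to 8.10 CPM in TLX; 3 of 12 were at 0 and 2 had enough counts to be tested.

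The upstream sequences of Apln, Vegfa and Vegfb are shown because these members differ in direction: higher with TLX, lower, and with a difference near 0. RefSeq (GRCm38.p6) starts were matched for 7 of the 10 members, Figf through its present symbol Vegfd. Aplnr, Angpt1 and Angptl4 had no match, so nothing is said here of their upstream sequence. The 250 bases before the start are printed 5′ to 3′ on the gene's strand, with capitals for GC boxes, the letters GGGCGG that Sp1 factors bind, and for the core letters ACGTG or GCGTG of HIF sites, on either strand. Apln lies on the minus strand at chrX:48034854-48035103, Vegfa on the minus strand at chr17:46032378-46032627, and Vegfb on the minus strand at chr19:6987652-6987901.
Apln: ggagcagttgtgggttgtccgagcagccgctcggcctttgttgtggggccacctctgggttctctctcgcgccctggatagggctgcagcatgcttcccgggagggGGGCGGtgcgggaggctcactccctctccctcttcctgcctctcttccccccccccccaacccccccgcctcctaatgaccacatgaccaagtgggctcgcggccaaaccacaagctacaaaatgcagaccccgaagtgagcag
Vegfa: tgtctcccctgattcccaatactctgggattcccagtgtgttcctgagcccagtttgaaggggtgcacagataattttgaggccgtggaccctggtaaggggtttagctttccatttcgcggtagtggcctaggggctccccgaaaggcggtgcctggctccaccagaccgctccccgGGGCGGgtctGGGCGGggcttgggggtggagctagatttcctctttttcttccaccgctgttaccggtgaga
Vegfb: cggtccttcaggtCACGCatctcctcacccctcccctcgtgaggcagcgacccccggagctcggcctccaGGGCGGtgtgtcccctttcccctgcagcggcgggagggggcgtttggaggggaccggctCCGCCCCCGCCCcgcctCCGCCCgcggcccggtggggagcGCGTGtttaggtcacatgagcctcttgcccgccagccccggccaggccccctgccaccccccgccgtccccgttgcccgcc
The Apln window held 1 GC box, that of Vegfa 2 and that of Vegfb 4. HIF core letters were found 2 times in the window of Vegfb and 0 times in the printed windows of Apln and Vegfa. RefSeq lists a second start of Vegfa, and the window before it, at chr17:46025164-46025413, is not printed. It held 2 HIF cores and 1 GC box, but an annotated exon on the same strand covers 218 of its 250 bases. The half-site AAGTCA, which TLX is known to bind, and the AP-1 letters TGANTCA had 0 matches on both strands in all 9 windows of the 7 members, and no 2 of these motifs overlapped. Besides the second Vegfa window, exons on the same strand cover 144 bases of the Figf window and all 250 bases of each Pgf window. Of all 32851 windows of this length, 13.1% held the TLX half-site, 38.6% a HIF core, 6.75% the AP-1 letters and 32.7% a GC box. Such letters describe these windows and say nothing of sites further away.

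Of the 10 members, 6 had enough counts to be tested in a fit over 11024 genes. Apln was higher with TLX, Vegfa and Angptl4 were lower, and Vegfb, Figf and Angptl2 did not pass (edgeR, adjusted p under 0.05). Among all genes tested 16.8% passed, 7.79% higher and 9.04% lower; since the members were chosen with this contrast known, nothing is read from their 3 calls. The median log2 fold change was 0.10 over the 6 members and 0.00057 over all genes tested. In 5 of the 6 the groups did not overlap, as in 57.1% of all genes tested. Pgf and Aplnr had too few counts, and Vegfc and Angpt1 were at 0.

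**Figure D1:**
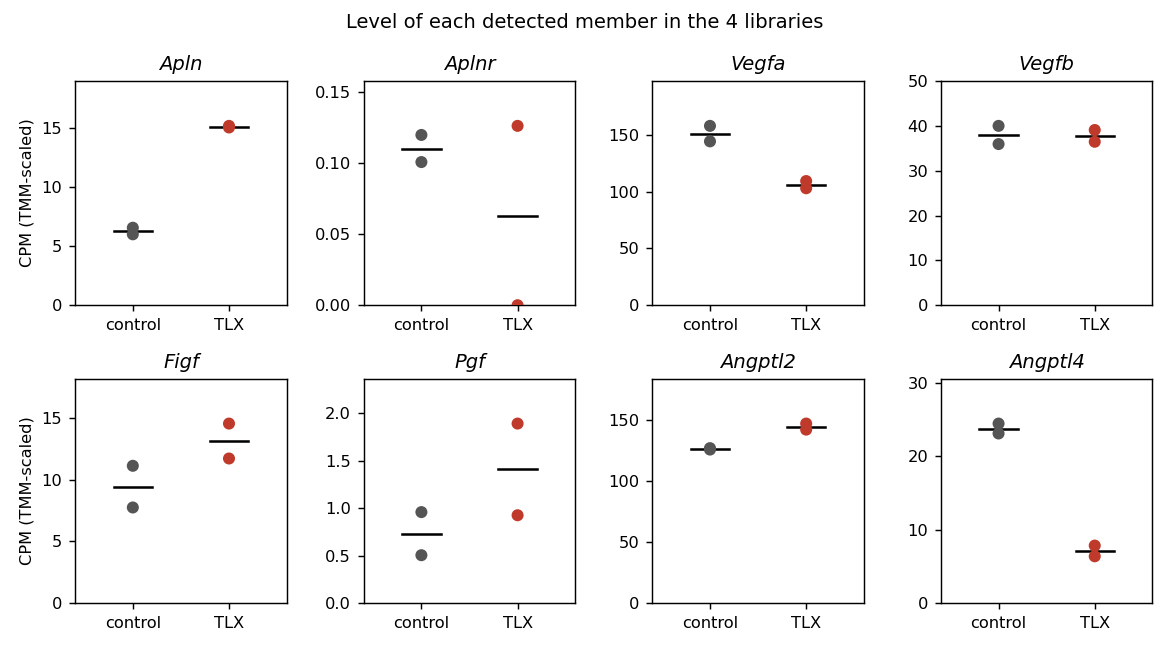
Level in each library of the 8 members with any counts (points, CPM on TMM-scaled sizes, axes from 0). Lines mark the mean of each group of 2. Apln and Angptl4 show the widest gaps between groups relative to their level, and the points of Vegfb, Pgf and Aplnr overlap between groups.

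Apln, the apelin gene, was counted 50 and 65 times in control and 131 and 119 times in TLX. Its level was 5.99 and 6.55 CPM in the control libraries and 15.1 and 15.0 CPM in the TLX libraries. Both TLX libraries lay far above both controls, and replicates within a group were close, at 6.27 ± 0.39 and 15.08 ± 0.10 CPM (SD, n = 2). The log2 fold change was 1.26 (SE 0.16), or 2.40-fold, the 30th highest among the 11024 genes tested. Leaving out 1 library at a time gave 1.20 to 1.33.

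Aplnr, the gene of the only receptor of apelin in this set, was almost silent. It had 1 count in each control library, and 0 and 1 in TLX replicates 1 and 2. Summed over a group, 2 counts in control and 1 in TLX lie under the floor of 3 counts, 0.164 and 0.181 CPM, so no fold change is given. The exact 95% Poisson intervals reached 0.395 CPM in control and 0.336 CPM in TLX, so a level above the floor is not excluded by these counts.

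Vegfa was among the most abundant members. It had 1205 and 1569 counts in control and 891 and 867 in TLX. Levels were 144 and 158 CPM in control and 103 and 109 CPM in TLX. The groups did not overlap, with 151.2 ± 9.7 CPM against 106.2 ± 4.5 CPM (SD, n = 2). The log2 fold change was -0.51 (SE 0.08), so control cells held 1.42-fold more, and leaving out single libraries gave -0.58 to -0.44. Reads were counted per gene, so the splice forms of Vegfa, which differ in heparin binding, cannot be told apart.

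Vegfb, whose product binds VEGFR1 and neuropilin 1 and is known for effects on fatty acid uptake, hardly differed. It stood at 40.0 and 36.0 CPM in control and 39.1 and 36.5 CPM in TLX. The 4 libraries were interleaved, and the log2 fold change was -0.0030 (SE 0.10). Its sign changed with the library left out, from -0.08 to 0.07.

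Figf, which encodes the lymphatic growth factor VEGF-D, had 93 and 77 counts in control and 126 and 93 in TLX. Levels were 11.1 and 7.75 CPM in control and 14.6 and 11.7 CPM in TLX, so the lower TLX library lay just above the higher control library. The log2 fold change was 0.50 (SE 0.18), and it ranged from 0.24 without control replicate 2 to 0.76 without control replicate 1. Whether Figf passed the threshold depended on the setting: it passed under total counts, without a filter on low counts, at 10 CPM on average, with limma-voom, without the rows Rn45s and Lars2, and without control replicate 1 or TLX replicate 2.

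Pgf, the placental growth factor gene, was near the limit of detection, with 8 and 5 counts in control and 8 and 15 in TLX. Group sums of 13 and 23 counts gave 0.711 CPM (95% Poisson interval 0.379 to 1.22) and 1.39 CPM (0.880 to 2.08). These exact intervals cover counting error only, and they overlap. Vegfc, the other lymphatic ligand gene, had 0 counts in every library, which allows 0.164 CPM in control and 0.181 CPM in TLX (3 counts per group).

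Angptl4 showed the widest difference of the set. It had 193 and 243 counts in control and 55 and 62 in TLX. Levels were 23.1 and 24.5 CPM in control and 6.36 and 7.82 CPM in TLX. The lowest control library was well above the highest TLX library, with means of 23.8 ± 1.0 and 7.1 ± 1.0 CPM (SD, n = 2). The log2 fold change was -1.75 (SE 0.15), a 3.37-fold lower level, the 19th lowest of all genes tested. It moved between -1.90 without TLX replicate 2 and -1.61 without TLX replicate 1.

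Angptl2, a secreted glycoprotein gene linked to inflammation, was slightly higher in the TLX libraries. It had 1058 and 1247 counts in control and 1227 and 1164 in TLX. Levels were 127 and 126 CPM in control and 142 and 147 CPM in TLX. The groups did not overlap, yet the log2 fold change was only 0.19 (SE 0.08), and 41.8% of all genes tested had a difference of at least that size. Angpt1, the Tie2 ligand gene, had 0 counts in all libraries, with the same allowance of 0.164 and 0.181 CPM as Vegfc.

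**Figure D2:**
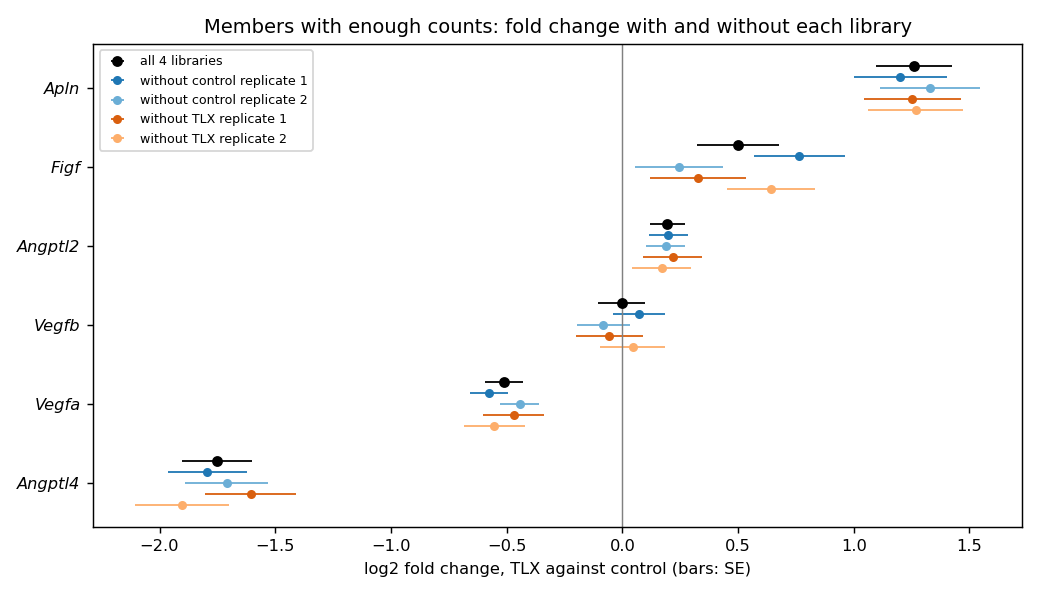
Log2 fold change of TLX against control for the 6 members with enough counts (points, with SE as bars), from all 4 libraries and with each library left out. Apln stays between 1.20 and 1.33 and Angptl4 between -1.90 and -1.61, while Figf spreads from 0.24 to 0.76.

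**Figure D3:**
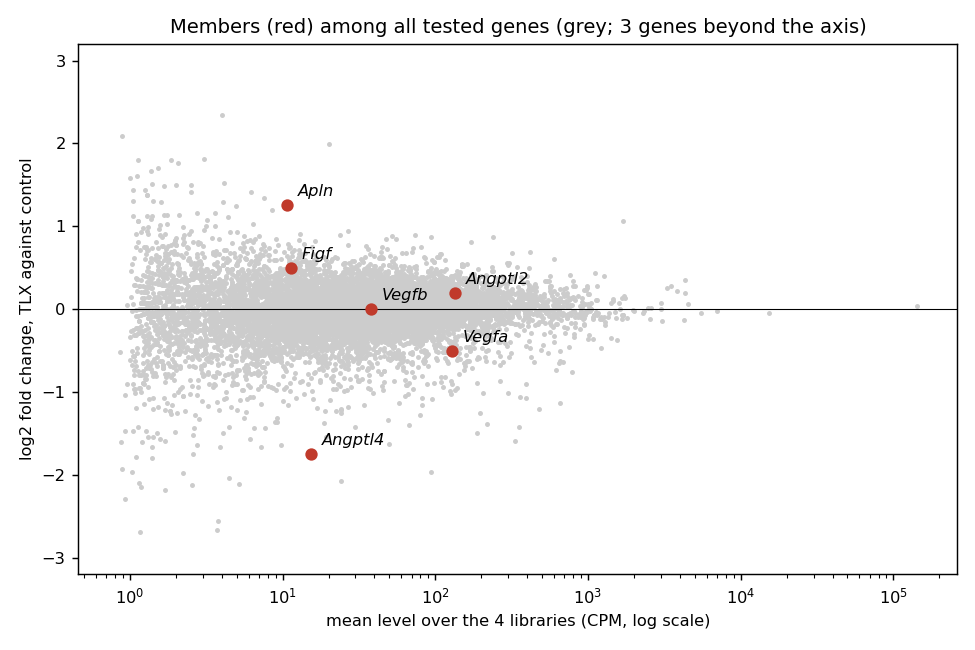
Log2 fold change against mean level (CPM, log axis) for all 11024 genes tested (grey) and the 6 members (red); 3 grey genes lie beyond the axis. Apln and Angptl4 sit at the outer edge for genes of their level, and Vegfb sits at the centre.

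Per kilobase of the deposited feature length, Angptl2 was highest of the members, at 39.3 CPM per kb over the 4 libraries. Vegfa followed with 30.8 and Vegfb with 29.5 CPM per kb. The ranges of these 3 overlapped between neighbours (36.5 to 42.6, 24.7 to 37.9 and 28.0 to 31.2 CPM per kb), so their order is not firm. Next came Angptl4 with 8.12, Figf with 6.02 and Apln with 3.39 CPM per kb, again with overlapping ranges between neighbours. Pgf at 0.636 and Aplnr at 0.0243 CPM per kb were lower than all of these in every library. Among the genes tested, Angptl2 was at the 82.7th percentile of level per kb and Apln at the 22.7th.

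The make-up of each family differed between groups. Of the summed level per kb of the VEGF ligands, Vegfa made up 47.8% and 53.8% in control and 38.9% and 42.2% in TLX. Vegfb held 43.2% and 39.9% in control and 48.0% and 45.9% in TLX. Per kb, its share was above that of Vegfa in both TLX libraries and below it in both control libraries. That order rests on the deposited feature lengths, 4174 bases for Vegfa and 1282 for Vegfb. In CPM not divided by length, Vegfa was the higher in both TLX libraries, at 103 and 109 against 39.1 and 36.5 for Vegfb. Figf held 7.0% ± 1.7 in control and 11.2% ± 1.5 in TLX (SD, n = 2), and the sum over the ligands was 71.3 ± 1.4 and 62.8 ± 1.0 CPM per kb. Among the angiopoietin-like genes, Angptl2 held 54.7% ± 0.8 of the level per kb in control and 75.7% ± 0.8 in TLX. Angptl4 held 18.7% ± 0.6 and 6.7% ± 0.7. Angptl6, which is not a member, held more than Angptl4 in each group and also had a lower share in TLX (25.5% ± 0.7 and 17.4% ± 0.2). These shares rest on the same differences as above and carry no test.

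**Figure D4:**
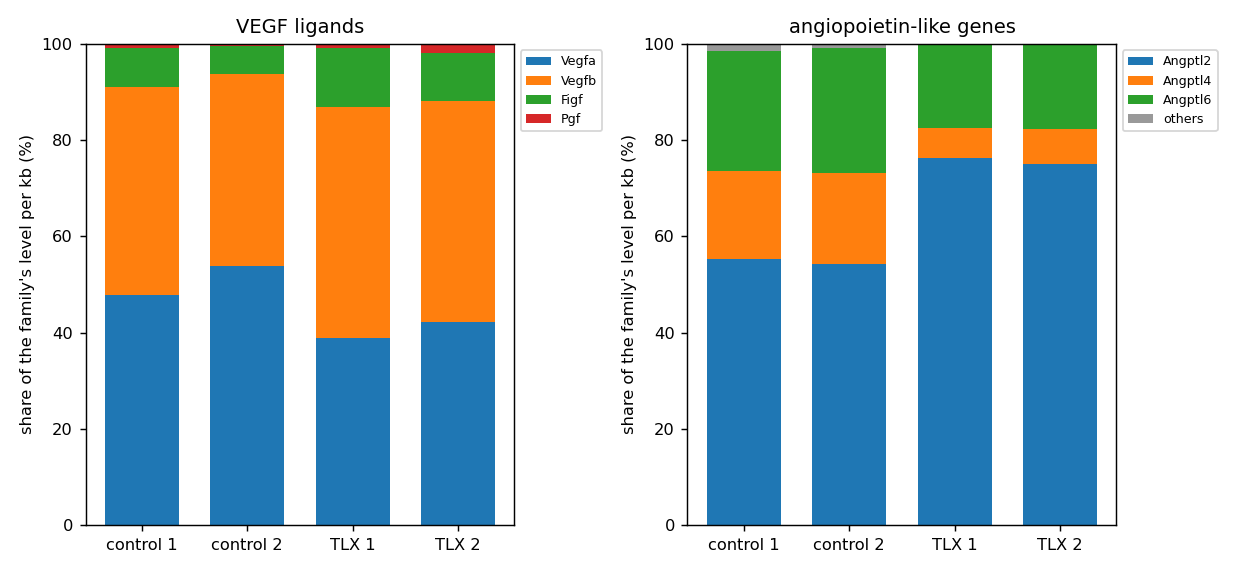
Share of each gene (percent of the summed CPM per kb) among the VEGF ligands (left) and the angiopoietin-like genes (right) in each library; genes at 0 are left out and genes of at most 1% in every library are summed as others. Per kb of the deposited feature length, Vegfb exceeds Vegfa in both TLX libraries, which does not hold for CPM not divided by length. Angptl2 takes 75.7% ± 0.8 of its family in TLX against 54.7% ± 0.8 in control.

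The genes most like a member were sought by the Euclidean distance between centred log2 levels over the 4 libraries, among 9644 genes averaging at least 5 CPM. Nearest to Apln were Hspa8, a constitutive chaperone gene (distance 0.207, log2 fold change 1.06), Fam46b (0.214, 1.41) and the orphan receptor gene Gprc5b (0.224, 1.35). Nearest to Vegfa were the zinc transporter gene Slc39a14 (0.0109, -0.50), the neurofilament gene Nefm (0.0112, -0.51) and Ptar1 (0.0128, -0.53). Nearest to Angptl4 were Ddit3, which encodes the stress factor CHOP (0.177, -1.59), Car6 (0.182, -1.63) and the growth factor gene Areg (0.243, -1.64). With 4 libraries in 2 groups, likeness mostly means a similar fold change.

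Other genes of these pathways were listed by role, and 70 of these 119 genes had enough counts. Of these, 5 were higher (7.14%) and 16 lower (22.9%), against 7.79% and 9.04% of all genes tested, with a median log2 fold change of -0.02. DESeq2's test called 4 of these genes higher and 13 lower. The 5 higher became 3 without TLX replicate 1 and 3 without TLX replicate 2. Earlier results of these data were known when the lists were drawn up, so these shares are a description. In the sentences that follow, adjusted p is that of edgeR's quasi-likelihood test over all 11024 genes.

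**Figure D5:**
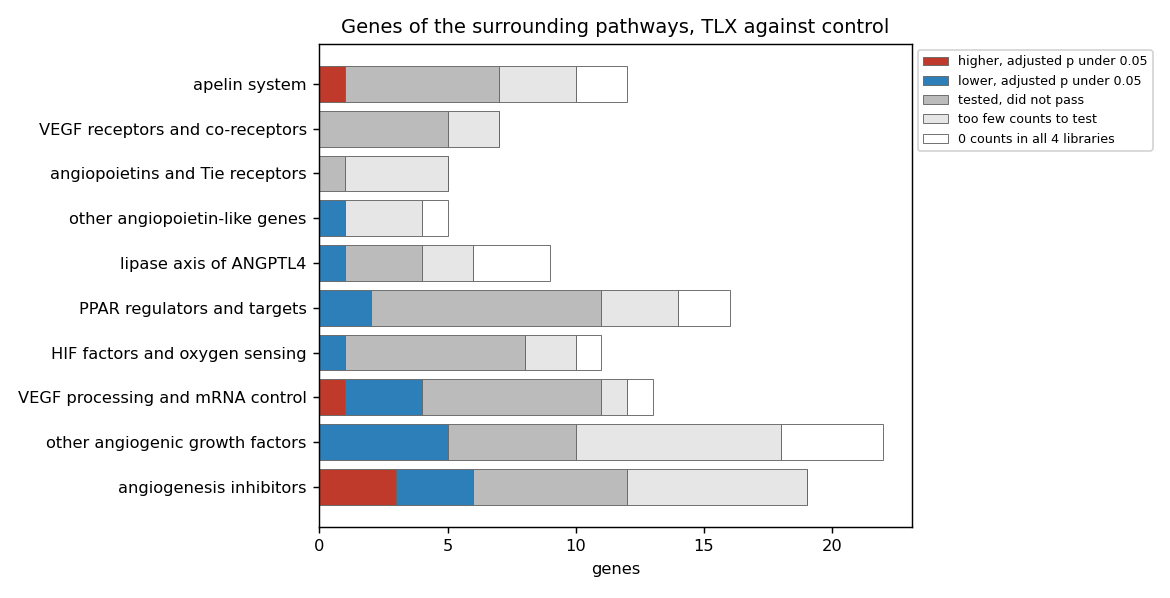
Number of genes in each pathway list that were higher, lower, tested without passing, too low to test or at 0. Lower genes outnumber higher ones among the other angiogenic growth factors (5 against 0), and both directions are equal among the angiogenesis inhibitors (3 and 3).

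The apelin system apart from the members mostly did not pass the test. Apela, listed as Gm10664, encodes the other ligand of the apelin receptor and was at 0. Furin, a protease that cuts proapelin, had control and TLX levels of 369 ± 2 and 325 ± 4 CPM (SD, n = 2; adjusted p = 0.0961) and did not pass; its exons overlap an antisense transcript. Of 7 tested genes only Gna11, a Gq-family G protein gene, rose, from 51.9 ± 1.2 to 67.3 ± 0.5 CPM (log2 fold change 0.38, adjusted p = 0.00400), and 0 fell (1 at an unadjusted p under 0.05 in edgeR, 0 in DESeq2). Gnai2 had 0.16 (adjusted p = 0.171, and 0.0234 without control replicate 1). Mme, whose peptidase degrades apelin, had at most 1 count in any library.

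The receptor tyrosine kinases of the VEGF ligands were scarce, whereas several co-receptors were abundant. Kdr, the main receptor of VEGF-A, had 2 counts in control replicate 2 and 0 elsewhere, and Flt4, the receptor of VEGF-C and VEGF-D, had 1 count in control replicate 1 and 0 elsewhere. Flt1, which encodes VEGFR1, had 15 and 21 counts in control and 10 and 11 in TLX, with a log2 fold change of -0.63 (SE 0.38, adjusted p = 0.274). Nrp2, a co-receptor gene, was abundant, at 392 ± 15 and 344 ± 20 CPM (SD, n = 2; adjusted p = 0.0928, and 0.0292 without control replicate 1). The heparan sulfate co-receptor genes Gpc1 (149 ± 11 and 138 ± 2 CPM, adjusted p = 0.428) and Sdc2 (94.0 ± 1.6 and 104.5 ± 6.3 CPM, adjusted p = 0.224) did not pass, and the neuropilin gene Nrp1 had 10 to 17 counts per library. Exons of Gpc1 overlap those of Ankmy1 on the other strand. Of 5 tested receptor and co-receptor genes 0 rose and 0 fell in edgeR, with 0 and 1 at an unadjusted p under 0.05 and 0 and 0 in DESeq2. On the angiopoietin side, Tek (Tie2) had 1 count in control replicate 1 and in TLX replicate 2, and Angpt2, an antagonist of Tie2 in many settings, had 3.50 ± 0.81 and 4.22 ± 0.08 CPM (adjusted p = 0.486).

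Angptl6 was the other angiopoietin-like gene with enough counts, and it fell. It had 218 and 272 counts in control and 126 and 123 in TLX, from 26.8 ± 0.9 to 15.0 ± 0.7 CPM (SD, n = 2; log2 fold change -0.83, SE 0.12, adjusted p = 4.18e-05). It passed under every alternative run. Its exons overlap those of A230050P20Rik on the other strand in the GENCODE annotation, and the use of strand in counting is not given in the sources used here. Exons of the 6 tested members overlapped no other gene there. Angptl1 was at 0, and Angptl7 and Angptl8 (listed as Gm6484) had too few counts.

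The lipase that ANGPTL4 inhibits was near 0 here. Lpl, the lipoprotein lipase gene, had 7 and 3 counts in control and 3 and 5 in TLX, and Gpihbp1, which anchors the enzyme on capillaries, was at 0. Of 4 tested genes of this axis, Vldlr, a lipoprotein receptor gene, went down from 47.5 ± 0.8 to 35.3 ± 1.4 CPM (adjusted p = 0.00306, but 0.0646 without TLX replicate 1) and 0 rose (0 at an unadjusted p under 0.05 in edgeR, 0 in DESeq2).

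Nuclear receptors of the PPAR family are known activators of Angptl4. Ppara was at 0, Pparg had at most 1 count in any library, and Ppard had 77.7 ± 5.5 and 68.0 ± 6.2 CPM (SD, n = 2; adjusted p = 0.166, and 0.0403 without control replicate 2). Of 11 tested PPAR regulators and targets, 2 fell and 0 rose (1 at an unadjusted p under 0.05 in edgeR, 0 in DESeq2). Plin2, the lipid droplet coat gene, fell from 793 ± 44 to 512 ± 7 CPM (log2 fold change -0.63, adjusted p = 5.18e-06). Rxrb, a partner receptor gene, had -0.31 (adjusted p = 0.0144), and did not pass in DESeq2 (0.0789), without control replicate 1 (0.0625), or without TLX replicate 1 or 2 (0.163 and 0.0937). Cpt1a, another PPAR target, had a log2 fold change of 0.08 (adjusted p = 0.498) and was chosen after its value was seen.

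Of 8 tested genes of HIF factors and oxygen sensing, 1 fell and 0 rose (1 at an unadjusted p under 0.05 in edgeR, 0 in DESeq2). Cited2, a HIF-induced inhibitor of HIF transcription, fell from 168 ± 3 to 110 ± 2 CPM (log2 fold change -0.61, adjusted p = 5.45e-06). Arnt, the HIF-1β gene, had -0.18 and the prolyl hydroxylase gene Egln1 0.23 (adjusted p of 0.165 and 0.0788). Hif1a, chosen after its value was seen, had 61.0 ± 4.9 and 60.0 ± 6.2 CPM (SD, n = 2; adjusted p = 0.883). Without control replicate 1, Egln2 passed as higher.

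Genes that process VEGF ligands or act on Vegfa mRNA moved in both directions, 1 higher and 3 lower of 11 tested. Zfp36, whose product tristetraprolin promotes decay of AU-rich mRNAs, fell from 33.1 ± 3.3 to 22.3 ± 0.8 CPM (log2 fold change -0.57, adjusted p = 0.00131). Its relative Zfp36l1 also fell, with a log2 fold change of -0.42 (adjusted p = 0.0156), but not in DESeq2 (0.136), without control replicate 2 (0.210) or without TLX replicate 1 (0.106). Hnrnpl, an RNA-binding protein gene, rose from 353 ± 5 to 442 ± 2 CPM (adjusted p = 0.00377), yet had adjusted p of 0.0749 without TLX replicate 1 and 0.0895 without TLX replicate 2; Zfp36l2 also passed without control replicate 2. Ccbe1, a cofactor of VEGF-C cleavage, had -0.79 (adjusted p = 0.0263, and 0.265 in DESeq2, 0.110 without control replicate 1 and 0.208 without TLX replicate 1). Exons of Zfp36, Zfp36l1, Hnrnpl and Ccbe1 overlap transcripts of the other strand in the annotation.

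Genes outside these families whose products are known to promote vessel growth fell, did not pass or could not be tested. Of the 22 listed, 8 had too few counts and 4 were at 0. Of 10 tested, 5 fell and 0 rose (0 higher at an unadjusted p under 0.05 in edgeR, 0 in DESeq2), and 5 also fell whichever library was left out. Ereg, an EGF receptor ligand gene, fell from 130 ± 17 to 61.4 ± 6.4 CPM (log2 fold change -1.08, adjusted p = 3.79e-08). Fgf7, a growth factor for epithelia, fell from 58.9 ± 4.0 to 31.0 ± 0.5 CPM (-0.93, adjusted p = 4.09e-07). Csf1, the macrophage growth factor gene, fell from 793 ± 7 to 503 ± 7 CPM (-0.66, adjusted p = 2.05e-06). The matricellular gene Cyr61 had a log2 fold change of -0.50 (adjusted p = 5.17e-05) and Tymp, a thymidine phosphorylase gene chosen after its value was seen, one of -0.47 (adjusted p = 0.000370). An antisense transcript overlaps Ereg, and overlaps of Tymp were not looked up.

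Among 12 tested angiogenesis inhibitors 3 rose and 3 fell. Sema3a, a semaphorin that competes for neuropilins, rose from 41.0 ± 0.6 to 59.1 ± 2.2 CPM (log2 fold change 0.53, adjusted p = 0.000246). Cxcl10, an interferon-induced chemokine gene, fell from 26.5 ± 0.8 to 11.3 ± 0.8 CPM (-1.23, adjusted p = 4.55e-07). Secreted protease genes Htra1 and Adamts1 had log2 fold changes of -1.43 and -0.54 (adjusted p of 1.17e-05 and 0.00233). Exons of Cxcl10 overlap those of Art3 on the other strand. Timp2 (0.34, adjusted p = 0.00328, and 0.106 without TLX replicate 1) and Thbs1 (0.45, adjusted p = 0.0487) also rose and were chosen after their values were seen. Thbs1 did not pass in DESeq2 (0.290), limma-voom (0.0502), with all feature rows (0.0551), or without control replicate 1 or TLX replicate 2 (0.195 and 0.358).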

How the data were processed

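RNA-seq counts were analysed for 2 control and 2 TLX libraries, matched to groups by their labels. TopHat2 2.0.13 and mm9 are named in the submitters' processing notes; the counting program, annotation, strand and treatment of reads with several matches were not given in the sources used here. Raw counts, as the authors deposited them, stand per feature without normalization, beside the feature length, per the file headers. FANTOM3 clone rows (33353 of 56826 rows, 23.3% to 25.1% of counts) carry no gene symbol. They were left out of the gene tests on the premise that some repeat counts of gene rows. For each of the 6 tested members, 0 clone rows held the same counts in all 4 libraries.

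The gene test was that of edgeR 4.0.16, on counts kept by filterByExpr (minimum count 10) and TMM-scaled sizes (quasi-likelihood F-test, 2 residual degrees of freedom, R 4.3.3) with Benjamini-Hochberg adjustment over 11024 genes at 0.05; SE is the log2 fold change over the square root of F. DESeq2 1.42.0 and limma 3.58.1 served as alternatives. The fit was tested on simulated data. Replicates were compared by a chi-square per gene, with expected counts from gene-row totals, not TMM-scaled sizes, so it includes any difference of scaling. Its median was 1.13 in control and 0.924 in TLX, against 0.455 from sampling alone, so each replicate was kept as its own library. The members, lists and tests were chosen with earlier results of these data known. Named pathway genes are up to 4 of smallest p per list, beside scarce receptors and ligands. Others are said to be chosen after their values were seen. Exon overlaps were looked up for the members and the genes of smallest p, not for the others. For likeness, 0.5 was added to CPM before the log2.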

Additional observations from a re-analysis of the deposited data

How the results depend on the processing

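Of the 6 members with enough counts, Apln, Figf and Angptl2 were higher and Vegfa and Angptl4 lower under every alternative run; Vegfb was positive without control replicate 1 or TLX replicate 2 and otherwise negative. Apln, Vegfa and Angptl4 passed under each alternative that keeps all libraries. These alternatives reuse the libraries whose differences were known when the members were chosen, so nothing is read from this. The members higher were 2 in place of 1 under total counts, no filter on low counts, 10 CPM on average, limma-voom and without Rn45s and Lars2 (Figf added), and 1 to 2 with single libraries left out. Leaving out single libraries moved Apln from 1.20 to 1.33 and Angptl4 from -1.90 to -1.61. Over all genes, DESeq2's test called 355 higher and 484 lower, and leaving out single libraries gave 388 to 993 higher and 585 to 1060 lower, the low counts being those without a TLX replicate; pathway genes higher were then 3 to 6. With a library left out, the lone sample of its group is assumed to vary like the other group.

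The labels share the numbers 1 and 2 between groups but do not say that they mark pairs, and with 2 numbers the data cannot settle it (correlation of the same-numbered differences 0.198 over 9644 genes). With the replicate block, 1495 genes were higher, 3 members (Apln, Figf and Angptl2) and 9 pathway genes among them, and 1487 were lower, 2 members and 20 pathway genes among them (16 without it). Among the pathway genes of smallest p, Furin, Nrp2 and Ppard then passed as lower, and Gnai2, Rxra and Egln1 as higher. The angiogenesis inhibitors then had 4 lower in place of 3. Genes of VEGF processing and mRNA control had 2 higher in place of 1. Low counts limit what can be said of Aplnr, Vegfc, Angpt1 and Pgf.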
